A study of Bos taurus with 6 samples.

Results

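Genes of the early secretory pathway were followed in blood cell RNA of heifers before and after severe cold: those for moving proteins into the endoplasmic reticulum (ER), for folding them there and for carrying them in COP-coated vesicles. The members were taken by gene symbol from the array's annotation, from the signal recognition particle (SRP genes) to the COPI coat and the regulators of the unfolded protein response. This gave 69 of the 6337 genes that the annotation names singly, measured by 93 of 12763 probe sets. Each gene is represented by the probe set that was brightest on average, and 21 of the 69 genes had more than 1. The symbol rule also took SEC14L1 and SEC14L2, which bind lipids and lie outside this route.

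The animals were Sanhe heifers, from a cattle breed of northern China kept for milk and meat. Cold exposure meant 3 hours outdoors at -32 °C and then 15 hours in a shed at 5 °C, and the labels do not say when in this course the later blood was taken. There were 3 arrays after cold (numbers 1, 2 and 3) and 3 before it (numbers 4, 5 and 6), all from 3 of the study's 30 heifers, and the labels do not say which arrays share an animal. The comparison therefore treats the 6 arrays as separate, and its p-values measure the spread between these arrays, which includes the spread between animals.

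Proteins that a cell secretes or places in its membranes are mostly made on the ER. The signal recognition particle binds the first stretch of the growing chain and brings the ribosome to the SEC61 channel, signal peptidase cuts that stretch off, and chaperones and disulfide isomerases fold the chain. Folded proteins leave in vesicles coated by COPII, and COPI coats carry escaped residents back from the Golgi. Chains that fail to fold are pulled out and degraded, and a build-up of them sets off the unfolded protein response, which raises many of the chaperone genes. In blood this machinery is richest in plasma cells, the antibody-secreting form of B cells.

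Values are log2 intensities, so a difference of 1 is a factor of 2. The medians of the arrays lay between 7.25 and 7.49, and the number of arrays limits the precision. The labelled white blood cells carried their markers: all 6 general leukocyte markers were measured, with PTPRC, the surface phosphatase CD45, at 11.2 to 12.4 on the 6 arrays. Signal of other blood elements was there too, with the red cell gene HBB at 11.7 to 12.3 and the platelet gene PF4 at 12.4 to 12.8. The after 2 and before 6 arrays were nearly alike (Pearson correlation of 0.995 across probe sets), while after 2 and after 3, from a single group, correlated at 0.874. Results are therefore also given with single arrays, or after 2 and before 6 together, left out.

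After cold, no member passed the test, and the members as a set lay close to the other genes. With limma, 0 of 69 members had an adjusted p under 0.05, and 0 of 12763 probe sets did (0%), with an adjusted p of 1.00 for every member. By their brightest probe sets, 0 members had an unadjusted p under 0.05 in limma. Of all genes, 34 of 6337 had one (0.537%, with 0.505% lower and 0.0316% higher after cold). The smallest member p was 0.0569 (limma), for TMED5, whose probe set was among the dimmest 25% of probe sets. The mean after cold was lower in 32 members (46.4%, against 43.7% of all genes) and higher in 37 (against 56.3%), and the median change was 0.02, against 0.05 over all genes. Differences ran from -1.05 for SRP72 to 0.35 for SEC14L1. They spread unevenly: 5 members were at least 1.5-fold lower after cold (7.25%, against 6.82% of all genes) and 0 were as much higher (against 0.142%). Those 5 were SRP72, SEC62, SEC23A, TMED5 and DNAJB9, which serve different steps of the route. In RNA of mixed blood cells, fewer cells of a type and less RNA per cell cannot be told apart.

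**Figure D1:**
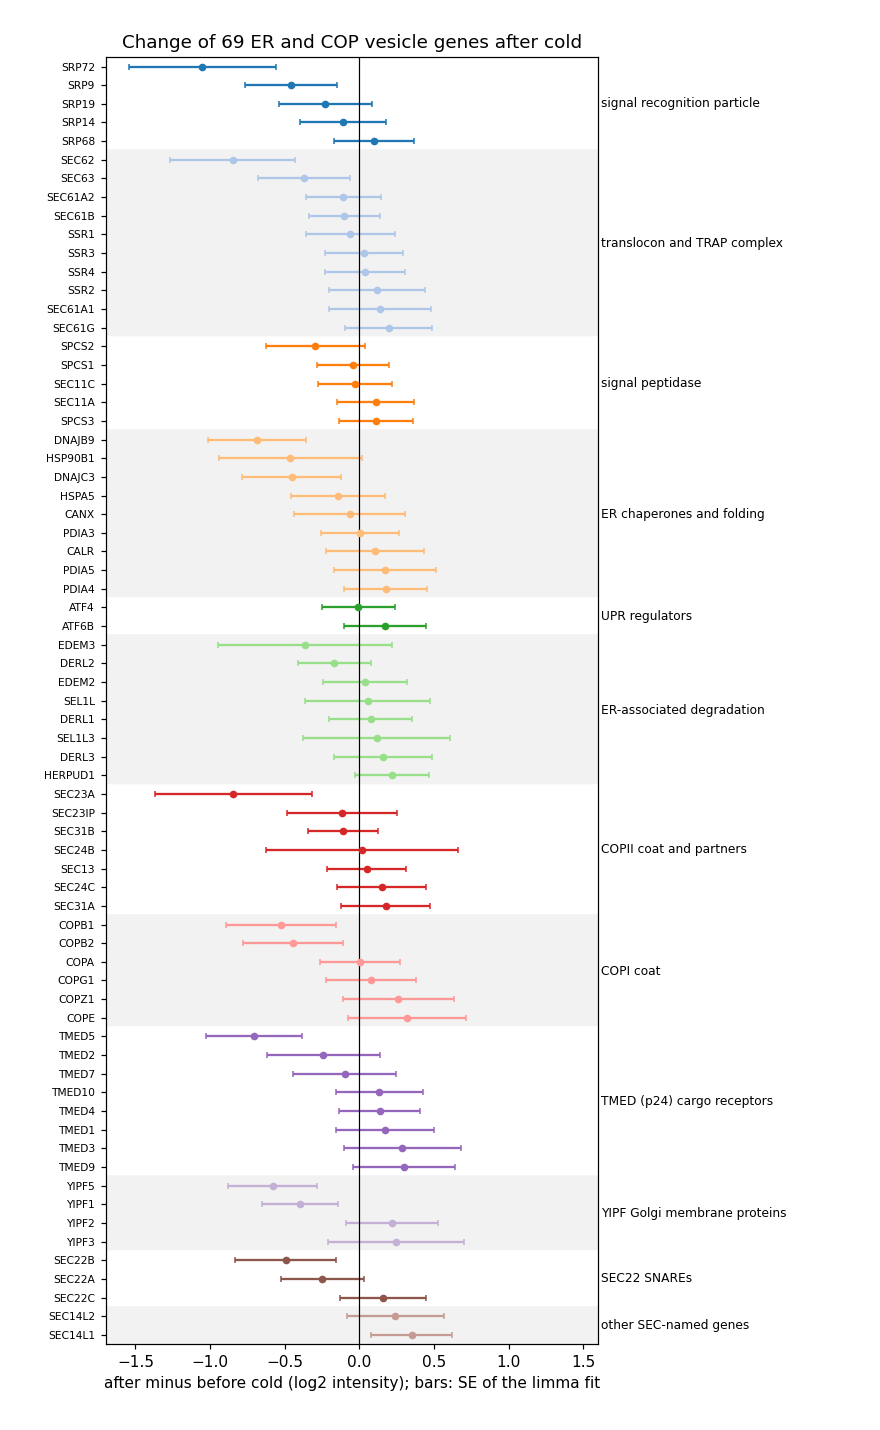
Difference of group means, after minus before cold, on the log2 scale (x axis) for the 69 genes (y axis), grouped by role, with the standard error (SE) of the limma fit as bars. SRP72, SEC62 and SEC23A lie farthest to the left, the largest difference to the right is 0.35, and no gene passed the test.

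Of the signal recognition particle, 5 protein subunits were measured, 4 of them lower after cold by mean, with a median difference of -0.23. SRP72, which with SRP68 forms the part of the particle that holds its RNA core, was at 8.75, 9.77 and 7.61 on arrays 1, 2 and 3 after cold. Before cold it was at 9.67, 9.82 and 9.80 on arrays 4, 5 and 6. The before arrays lay close together, after 3 lay far under them, and after 2 lay among them. The difference was -1.05 ± 0.49 (SE), which is 0.482 of the level before, with a 95% interval of -2.18 to 0.08 and an unadjusted p of 0.0643 (limma, adjusted p = 1.00). A separate SRP72 probe set differed by -0.94. Its partner SRP68 did not share this pattern: it was at 7.55, 7.55 and 8.10 after and 7.66, 7.65 and 7.59 before, highest on the array where SRP72 was lowest.

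SRP9 and SRP14 form the end of the particle that pauses translation. SRP9 was at 9.08, 9.03 and 8.22 after cold and 9.08, 9.33 and 9.30 before, a difference of -0.46 ± 0.31 (SE). SRP14 differed by -0.11 ± 0.29, and SRP19, which helps assemble the particle, by -0.23 ± 0.31. All 3 had their lowest value on after 3, and the groups overlapped in each.

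In the channel itself, the brightest probe sets of the core subunits differed little between groups. The accessory subunit SEC62 had the second largest difference of all members. SEC62, which assists chains that enter after they are made, was at 8.55, 9.04 and 7.38 after cold and 9.03, 9.29 and 9.19 before. After 1 and after 3 lay under all before arrays, and after 2 was barely above the lowest of them. The difference was -0.85 ± 0.42 (SE), with a 95% interval of -1.81 to 0.11 (limma, adjusted p = 1.00). A separate, dimmer SEC62 probe set differed by -0.89 (limma, unadjusted p = 0.0487). That probe set was at 6.57, 7.20 and 5.72 after and 7.28, 7.26 and 7.63 before, so its groups did not overlap. SEC63, the partner of SEC62, differed by -0.37 ± 0.31, and its other 2 probe sets by -0.53 and -0.42.

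The pore-forming SEC61A1 was at 9.88, 9.11 and 10.04 after cold and 9.69, 9.83 and 9.09 before. Its values were low on after 2 and before 6 and high on the other 4 arrays, so that the spread within each group exceeded the difference of 0.14 ± 0.34 (SE). The small subunit SEC61B varied least in the channel, from 10.61 to 10.85 over all 6 arrays, with a difference of -0.10 ± 0.24. SEC61G differed by 0.20 ± 0.29, and SEC61A2, a second form of the pore subunit, by -0.11 ± 0.25. Dimmer SEC61A2 probe sets differed by -0.48 ± 0.51 and -0.42 ± 0.33. The TRAP complex, which sits beside the channel, had all 4 subunits measured. By their brightest probe sets, the differences lay between -0.06 for SSR1 and 0.12 for SSR2. Dimmer probe sets of SSR1 and SSR3 differed by -0.17 and 0.02. Of the 10 channel and TRAP genes, 5 were lower and 5 higher by mean, with a median of -0.01.

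Signal peptidase was among the steadiest groups of members. Its catalytic subunits SEC11A and SEC11C differed by 0.11 ± 0.26 and -0.03 ± 0.25 (SE), the latter turning to 0.01 when each array was centred on its median. SPCS1 was at 11.12, 11.36 and 11.21 after and 11.24, 11.14 and 11.42 before. SPCS2 varied more, at 11.06, 11.79 and 10.74 after and 11.35, 11.35 and 11.78 before, with a difference of -0.30 ± 0.33. SPCS3 differed by 0.11 ± 0.25 with its brightest probe set and by -0.15 with another. The median range over the 6 arrays was 0.46 for these 5 genes, against 0.98 over all genes.

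Among the chaperones, 5 of 9 members were lower and 4 higher by mean, with a median of -0.07. DNAJB9, an ER co-chaperone of the HSP70-type chaperone HSPA5, was at 7.89, 8.38 and 7.24 after cold and 8.37, 8.54 and 8.66 before. After 2 was barely above the lowest before array, and after 1 and after 3 lay below all of them. The difference was -0.69 ± 0.33 (SE; 95% interval -1.44 to 0.07; limma, adjusted p = 1.00). DNAJC3, a related co-chaperone, was at 8.36, 8.76 and 7.64 after and 8.60, 8.86 and 8.66 before, again lowest on after 3, and differed by -0.45 ± 0.33.

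The abundant chaperones varied between arrays more than between groups. HSPA5 (BiP), the main ER chaperone and a standard readout of the unfolded protein response, was at 10.31, 10.96 and 10.36 after cold and 10.83, 10.25 and 10.99 before. Both groups held high and low arrays, and the difference was -0.14 ± 0.31 (SE), with a 95% interval of -0.86 to 0.58. HSP90B1 (GRP94), which folds receptors and antibody chains, was at 10.14, 11.52 and 9.82 after and 10.52, 10.84 and 11.51 before, a difference of -0.46 ± 0.48. After 2 and before 6 were its highest arrays and differed by 0.01, while after 2 and after 3 differed by 1.70. The sugar-reading chaperones calnexin (CANX) and calreticulin (CALR) differed by -0.07 ± 0.37 and 0.11 ± 0.33. Calnexin was high on after 2 and before 6 (10.32 and 10.41), and calreticulin was highest on before 4 (10.94) and lowest on before 5 (9.91).

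The disulfide isomerases all had small differences. PDIA3, which works with calnexin and calreticulin on glycoproteins, differed by 0.004 ± 0.26 (SE). PDIA4 and PDIA5 differed by 0.18 ± 0.28 and 0.17 ± 0.34. PDIA5 was low on after 2 and before 6 (7.71 and 7.73) and at 8.07 to 8.73 elsewhere, so it was lowest on the arrays where HSP90B1 was highest.

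**Figure D2:**
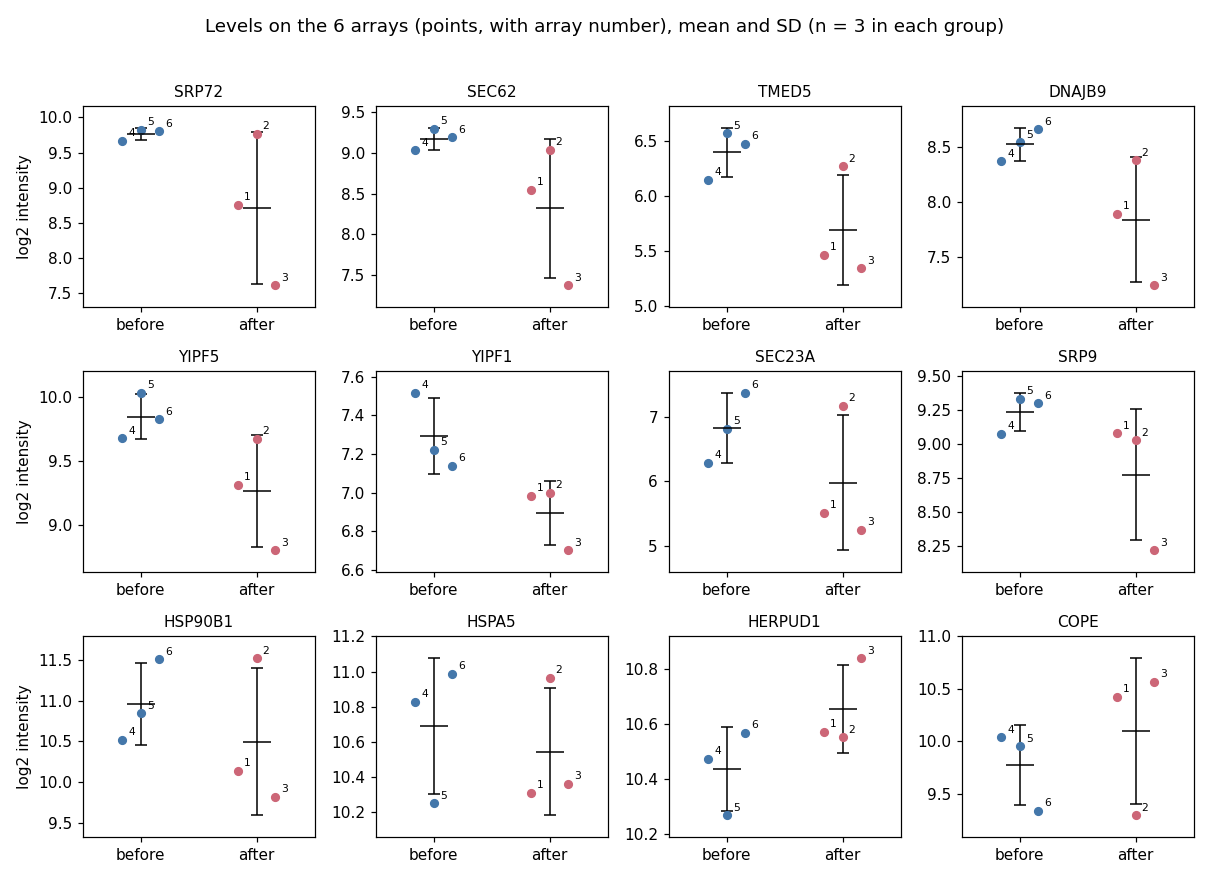
Log2 intensity (y axis of each panel) of 12 members on the 3 arrays before and the 3 after cold, each point marked with its array number, with the group mean and SD (n = 3) as black bars. In SRP72, SEC62 and DNAJB9 the after 3 array is lowest and after 2 lies at or near the values before cold, and only in YIPF1 and YIPF5 do the groups not overlap.

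Of the regulators of the unfolded protein response, ATF4 and ATF6B were measured. ATF4, a transcription factor controlled mainly through its translation, was steady at 10.84, 11.05 and 10.70 after and 10.89, 10.77 and 10.96 before. Its difference was -0.01 ± 0.24 (SE), of either sign by scaling (0.03 with median centring). ATF6B, a membrane-bound relative of the ER stress sensor ATF6, differed by 0.17 ± 0.27. XBP1, ERN1, ATF6 and DNAJB11 had no probe set with their symbol alone and are not analysed here, and the same holds for SRP54.

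Degradation genes had 6 of 8 members higher and 2 lower by mean, with a median of 0.07. HERPUD1, an ER membrane protein strongly induced by ER stress, was at 10.57, 10.55 and 10.84 after and 10.48, 10.27 and 10.57 before. The groups overlapped by a narrow margin, with a difference of 0.22 ± 0.25 (SE; 95% interval -0.35 to 0.79). EDEM3, which trims sugars of misfolded glycoproteins, had the second widest range of all members: 7.01, 8.41 and 6.25 after and 7.20, 7.11 and 8.45 before. High and low arrays occurred in both groups, and its difference was -0.36 ± 0.58.

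Its relative EDEM2 differed by 0.04 ± 0.28 (SE). SEL1L, which holds the ubiquitin ligase of this pathway together, was at 8.53, 9.44 and 8.55 after and 8.63, 8.18 and 9.55 before (0.06 ± 0.42). The DERL proteins, which help pass chains back through the membrane, differed by 0.08 ± 0.28 (DERL1), -0.17 ± 0.24 (DERL2) and 0.16 ± 0.33 (DERL3). SEL1L3, a relative of SEL1L, differed by 0.12 ± 0.49.

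The COPII coat showed a large difference in SEC23A alone. SEC23A, part of the inner coat that gathers cargo, was at 5.51, 7.17 and 5.25 after cold and 6.28, 6.81 and 7.36 before. After 1 and after 3 lay under all before arrays and after 2 near the top of them. The difference was -0.84 ± 0.53 (SE; 95% interval -2.05 to 0.36; limma, adjusted p = 1.00), and another SEC23A probe set gave -0.43. SEC24B, a cargo-binding subunit, was at 4.86, 6.90 and 5.62 after and 4.94, 5.40 and 6.99 before. It had a range of 2.13 over the arrays and a difference of 0.02 ± 0.64. SEC24B was dim, at a mean of 5.79, among the dimmest 25% of probe sets. SEC24C, its relative, differed by 0.15 ± 0.30 and was lowest on after 2 and before 6, where SEC24B was highest.

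The outer coat genes SEC13 and SEC31A differed by 0.05 ± 0.26 and 0.18 ± 0.30 (SE). SEC23IP, which binds SEC23, differed by -0.12 ± 0.37. SEC31B, a relative of SEC31A, had the narrowest range of the members, from 4.40 to 4.63, and differed by -0.11 ± 0.23, or 0.01 with quantile normalization. It was also the dimmest member, at a mean of 4.56, where the dimmest 25% of probe sets lie under 6.16.

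Subunits of the COPI coat, which assemble as 1 complex, had opposite patterns over the after arrays. Such patterns were common: after 2 and before 6 were both above or both below the other 4 arrays in 66.7% of the COPI members and in 62.4% of all genes. COPB1 (the beta subunit) was at 9.63, 10.49 and 9.24 after cold and 9.96, 10.50 and 10.49 before, and COPB2 (beta prime) at 9.41, 10.17 and 9.07 after and 10.05, 9.75 and 10.20 before. COPE (epsilon) ran the other way, at 10.43, 9.30 and 10.56 after and 10.04, 9.95 and 9.34 before. Within the after group, after 2 was the highest array for COPB1 and COPB2 and the lowest for COPE. The differences were -0.53 ± 0.37, -0.45 ± 0.34 and 0.32 ± 0.39 (SE), and the groups overlapped in all 3.

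COPA, the alpha subunit, was also highest on after 2 within the after group, at 10.25, 10.62 and 10.30, and differed by 0.005 ± 0.27 (SE). COPG1 and COPZ1 followed COPE within the after group and differed by 0.08 ± 0.30 and 0.26 ± 0.37. A second COPZ1 probe set differed by 0.09. ARCN1, the delta subunit, which the symbol rule does not take, was at 8.21, 9.37 and 8.18 after and 8.94, 9.21 and 9.34 before (-0.57 ± 0.37), as COPB1 and COPB2 in the after group.

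**Figure D3:**
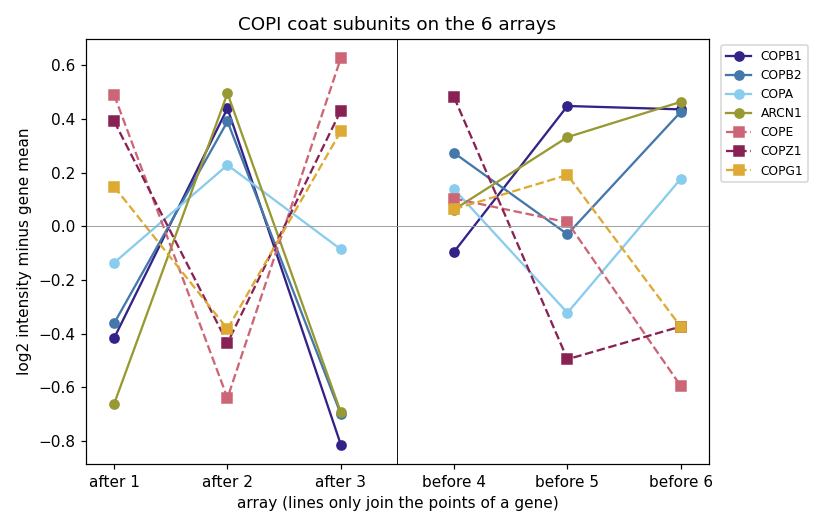
Log2 intensity of the 7 COPI coat subunits minus the gene's own mean (y axis) on the 6 arrays (x axis); solid lines with circles are COPB1, COPB2, COPA and ARCN1, dashed lines with squares COPE, COPZ1 and COPG1. The line styles mark the genes that are highest (solid) or lowest (dashed) on after 2 within the after group, so this split is not itself a result. The sets do not stay together on the before arrays: on before 5, COPB1 is at its highest and COPA at its lowest.

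The TMED proteins, small membrane receptors that help load COPII and COPI vesicles, had 5 of 8 members higher and 3 lower by mean, with a median of 0.13. TMED5 was at 5.47, 6.27 and 5.34 after and 6.15, 6.57 and 6.48 before. After 2 lay above the lowest before array and the other after arrays below it. The difference was -0.71 ± 0.32 (SE; 95% interval -1.44 to 0.03; limma, adjusted p = 1.00), while a second TMED5 probe set gave -0.16. The brightest TMED5 probe set was itself dim, at a mean of 6.05, and filters for dim probe sets dropped it.

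TMED9 and TMED3 had the largest positive differences of this family, 0.30 ± 0.34 and 0.29 ± 0.39 (SE). TMED9 was at 10.50, 9.75 and 10.59 after and 10.45, 9.84 and 9.65 before. TMED2, which pairs with TMED10 in these receptors, was at 10.003, 10.71 and 9.45 after and 10.06, 10.07 and 10.76 before (-0.24 ± 0.38). TMED2 was highest on after 2 and before 6, and TMED9 was low on both. TMED7 differed by -0.10 ± 0.35 with its brightest probe set and by 0.12 with another, and TMED10, TMED4 and TMED1 by 0.13 to 0.17.

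By brightest probe sets, YIPF1 and YIPF5 were the 2 members whose groups did not overlap, both lower after cold. That is 2.90% of the members, against 3% of all genes in this direction, 2.02% in the other and 5.02% in either. Among dimmer probe sets, groups also did not overlap for SEC62 (lower after cold) and PDIA5 (higher, by 0.26 ± 0.24 at a mean level of 3.71). YIPF5, a membrane protein of the ER exit sites and Golgi, was at 9.31, 9.67 and 8.80 after and 9.68, 10.03 and 9.82 before, and the groups were separated by only 0.0035. The difference was -0.58 ± 0.30 (SE; 95% interval -1.27 to 0.11). YIPF1, a Golgi relative, was at 6.98, 6.999 and 6.70 after and 7.52, 7.22 and 7.14 before, a gap of 0.14. Its difference was -0.40 ± 0.25, and its other 2 probe sets gave -0.34 and -0.35. Both had an adjusted p of 1.00 (limma). YIPF2 and YIPF3 differed by 0.22 ± 0.31 and 0.24 ± 0.45.

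Of the SEC22 fusion proteins (SNAREs), SEC22B, which joins ER and Golgi membranes, was at 8.35, 8.26 and 7.27 after and 8.64, 8.32 and 8.40 before. After 3 stood apart from the other 5 arrays, and the difference was -0.49 ± 0.34 (SE). SEC22A differed by -0.25 ± 0.28. SEC22C differed by 0.16 ± 0.29, and its other probe set by -0.10. SEC14L1, which had the largest positive difference, was at 9.54, 9.55 and 10.01 after and 9.43, 9.54 and 9.09 before, with after 1 just under the highest before array (0.35 ± 0.27). SEC14L2 differed by 0.24 ± 0.33.

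Partner genes of the same route, from 5 lists that the symbol rule does not take, gave a like picture. Of the SRP receptor and the glycan-adding complex 6 of 11 measured genes were higher and 5 lower by mean (median 0.01). Of glycan trimming and folding partners 8 of 11 were higher (median 0.09), of degradation partners 5 of 11 (median -0.02), of the PERK branch and its stress targets 5 of 7 (median 0.14) and of vesicle partners 11 of 28 (median -0.04). In limma, 0 of these genes had an unadjusted p under 0.05, against 0.537% of all genes. Groups did not overlap for 1 of 11 degradation partners (9.09%), 1 of 28 vesicle partners (3.57%) and none in the other lists, against 5.02% of all genes. They were UBE2J2, a ubiquitin-conjugating enzyme of ER degradation, and CNIH1, a cargo receptor for COPII vesicles. UBE2J2 was higher after cold by 0.32 ± 0.26 (SE), and CNIH1 was lower, with a difference of -0.39 ± 0.28.

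The partner genes farthest from 0 relative to their error included UBXN4, which ties the degradation complex to the ER (-0.64 ± 0.37, SE). KDELR3, a receptor that returns ER residents from the Golgi, differed by -0.67 ± 0.40, and its relatives KDELR1 and KDELR2 by 0.25 ± 0.40 and 0.13 ± 0.24. EIF2S1, the translation factor that the stress kinase PERK modifies, differed by -0.57 ± 0.38. DDIT3 (CHOP), a late marker of ER stress, was at 8.31, 8.02 and 7.10 after and 7.90, 8.12 and 7.73 before (-0.10 ± 0.35).

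Spread between arrays was wide in many members and did not follow the groups. The highest and lowest array differed at least 2-fold in 28 of 69 members, against 48.5% of all genes. After 3 was the lowest array in 29 members (42.0%, against 32.5% of all genes) and the highest in 20 (29.0%, against 36.4%). After 2 and before 6 were both above the other 4 arrays in 21 members and both below them in 20. Together these are 59.4% of the members, against 62.4% of all genes. Members of the first kind included HSP90B1, CANX, HSPA5, EDEM3, SEL1L, SEC23A, SEC24B, COPB2 and TMED2, and of the second kind SEC61A1, SSR2, SSR4, PDIA5, COPE, TMED9 and YIPF3. The after 2 and before 6 values of a member differed by a median of 0.07 and those of after 2 and after 3 by a median of 0.76. Signal recognition particle genes were in neither kind. Their median deviation was -0.68 on after 3 and between 0.01 and 0.23 on the other 5 arrays.

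**Figure D4:**
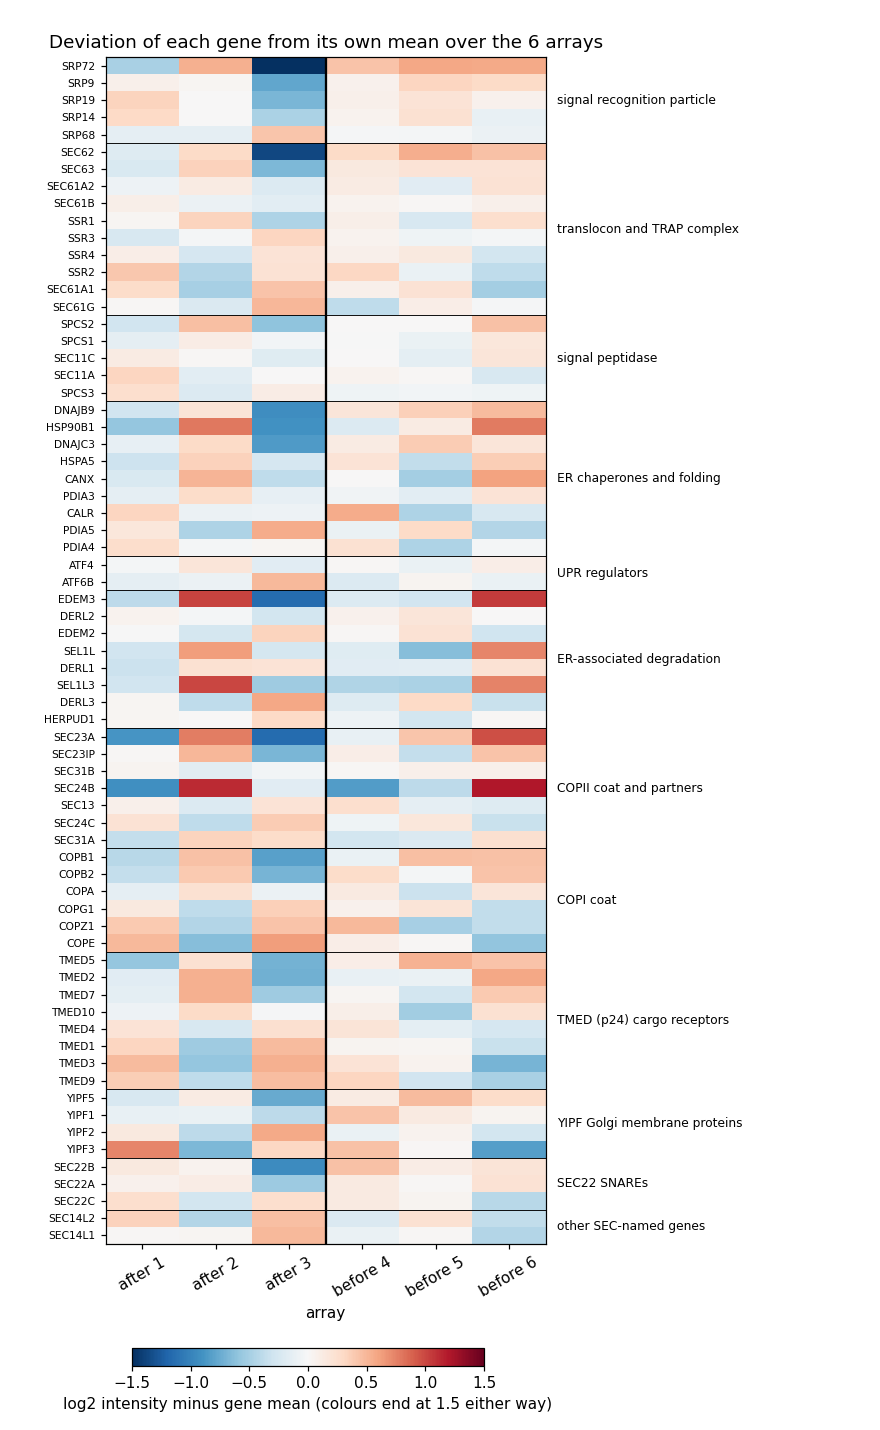
Log2 intensity minus the gene's own mean over the 6 arrays (colour; blue below, red above, ending at 1.5) for the 69 genes (rows, by role) on the 6 arrays (columns; a black line parts after from before). After 2 and before 6 have like colours in most rows, and after 3 is the bluest array for the signal recognition particle.

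The number of members that separated the groups changed with the arrays left out, as it did over all genes. Without the after 2 array, 12 of 69 members had an unadjusted p under 0.05 in limma (17.4%, against 12.5% of all genes), 11 of them lower after cold. The 11 were SRP72, SEC62, SEC63, HSP90B1, DNAJB9, DNAJC3, SEC23A, COPB1, COPB2, TMED5 and YIPF5, and the member that was higher was COPE. Groups then did not overlap in 27 members (39.1%, against 42.8% of all genes). Without both after 2 and before 6, 9 members had such a p (13.04%, against 9.44%), all lower after cold, and the groups of 28 did not overlap (40.6%, against 47.9% of all genes). No member passed an adjusted p of 0.05 in either. Without after 3, the array lowest in most of these genes, the differences were -0.50 for SRP72, -0.38 for SEC62, -0.39 for DNAJB9, -0.35 for YIPF5 and -0.15 for SEC22B. In that limma fit 0 members had an unadjusted p under 0.05, against 0.0158% of all genes.

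Because the same heifers gave blood at both times, the 6 ways to match after with before arrays were each fitted as a block. They gave 0 to 8 members at an unadjusted p under 0.05 in limma, all lower after cold and none at an adjusted p under 0.05. The matching 1-4, 2-6, 3-5 gave 8 (11.6%, against 8.43% of all genes): SRP72, SEC62, DNAJB9, SEC23A, COPB2, TMED5, YIPF1 and YIPF5. The matching 1-5, 2-6, 3-4 gave 6 (8.70%, against 5.11%). The true matching is not given in the labels. With array weights, which are meant to let steadier arrays count for more, 4 members had such a p (5.80%, against 6.03% of all genes). They were SRP72, SEC62, SEC22B and YIPF1, all lower. The weights ran from 0.0019 for after 1, which hardly counted, to 30.7 for before 4, and their estimate stopped before convergence.

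Probe set names of this array carry a letter A or S, whose meaning is not given in the sources used here, and the members with large negative differences were mostly measured by A probe sets. This was looked at after the values were seen. Of the 5 members at least 1.5-fold lower, 4 (SRP72, SEC62, SEC23A and TMED5) rest on one and DNAJB9 on an S probe set. In all, 4 of 8 members on A probe sets were at least 1.5-fold lower, and 1 of 61 on S probe sets. Over all genes these shares were 12.1% and 5.39%. The S probe sets of SRP72, SEC23A and TMED5 differed by -0.94, -0.43 and -0.16. The part of the probe design in these differences was not tested.

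The summed intensities of the cell type marker lists overlapped between the groups. Of 7 listed plasma cell markers 4 were measured. All 4 were higher by mean after cold, from 0.04 ± 0.50 (SE) for PRDM1 to 0.46 ± 0.28 for POU2AF1. The 3 neutrophil and 2 red cell markers measured were also all higher, and the 2 platelet markers lower. T cell markers were lower in 5 of 7 and monocyte markers in 4 of 5. JCHAIN, the joining chain of secreted antibodies, was at 11.97 to 12.35 over the 6 arrays. Plasma cell markers summed to 5754 to 6839 after and 5267 to 6414 before. T cell markers (7 of 7 measured) summed to 12058 to 17245 after and 12597 to 19621 before, and monocyte markers (5 of 6) to 2000 to 3334 and 2382 to 3905. Neutrophil markers (3 of 6) summed to 18562 to 24674 and 15918 to 24276, and B cell markers (3 of 6) to 4483 to 5384 and 4787 to 5574. CD3G, a T cell receptor chain gene, was low on after 3 (9.86, against 11.26 to 11.75 on the other 5 arrays), the array on which SRP72, SEC62 and SEC22B were also lowest, and CD247, another chain gene of that receptor, was lowest there too (11.19, against 11.50 to 12.11). The other 5 T cell markers were not lowest on after 3, with CD3E and CD3D at 10.91 and 11.53 there, and the summed T cell markers had their lowest value, 12058, on that array. Groups did not overlap for 1 of 4 plasma cell markers, 1 of 5 monocyte markers and none in the other marker lists, against 5.02% of all genes. They were POU2AF1, a B cell and plasma cell factor (higher after cold by 0.46 ± 0.28, SE), and MSR1, a scavenger receptor of monocytes and macrophages (-0.66 ± 0.28). MSR1 was dim, at 4.04 to 5.21 over the 6 arrays, where the dimmest 25% of probe sets lie under 6.16. The part of cell composition in the members' values was not tested.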

How the data were processed

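The authors deposited probe set intensities on a linear scale for 6 arrays of an Affymetrix bovine design, and the submitters' processing notes name GCOS and RMA, with no version of either. Filters and detection calls are not stated in the labels. The log2 of the deposited values was used with no further normalization, pseudocount or filter. Gene symbols came from the platform annotation, which gives 8125 probe sets a single symbol.

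Differences, after minus before cold, were fitted for all 12763 probe sets in limma 3.58.1 (R 4.3.3; lmFit and eBayes, no block, two-sided, Benjamini-Hochberg over all probe sets, threshold 0.05). The smallest two-sided p that an exact permutation test could reach with these groups is 0.1. The fit was tested on simulated data with 12763 probe sets. It recovered 4.48% of 67 changes of 1 on the log2 scale, 59.7% of 67 of 2 and 86.4% of 66 of 3. There were 6 false of 106 calls. In that setting, changes of the size seen here are mostly below its reach. The simulated noise was independent between probe sets, while the real arrays share patterns over many genes, so shares for the real data may differ.

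Members, lists, the rule for named genes and the alternatives were chosen with earlier results of these data known. The rule took 16 core genes (11 measured), the 8 members per direction with the largest t, the extremes of each role, the 5 widest ranges, members whose probe sets disagree, and up to 2 genes per partner list by t, and other members were named beside them after their values were seen. Alternatives were dim filters of 25% and 50%, an intensity trend, array weights, median centring, quantile normalization, a pseudocount of 16, averaging a gene's probe sets, arrays left out and matched blocks. Sequence features planned for the members were not analysed here.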

Additional observations from a re-analysis of the deposited data

How the results depend on the processing

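In limma, 0 members passed an adjusted p of 0.05 in every setting run. The count of members at an unadjusted p under 0.05 in limma was 0 as reported. It became 4 with array weights (5.80% of members, against 6.03% of all genes). With median centring it was 1 (1.45%, against 0.978%) and with quantile normalization 1 (1.45%, against 0.868%). It was 9 without after 2 and before 6 (13.04%, against 9.44%) and 12 without after 2 (17.4%, against 12.5%). Leaving out any other single array gave 0 (against 0.0158% to 0.347%). With the replicate block, the matching 1-4, 2-5, 3-6 gave 0 (against 0.237% of all genes). The matching 1-4, 2-6, 3-5 gave 8 (11.6% of members, against 8.43%). The matching 1-5, 2-4, 3-6 gave 0 (against 0.158%) and 1-5, 2-6, 3-4 gave 6 (8.70%, against 5.11%). The matchings 1-6, 2-4, 3-5 and 1-6, 2-5, 3-4 each gave 1 (1.45%, against 0.521% and 0.331%). The 2 members whose groups do not overlap became 4 with median centring (5.80% of members, against 5.52% of genes) and 4 with quantile normalization (5.80%, against 5.43%). Without the dimmest 50% they became 1 (1.69%, against 4.57%), and 10 members fall below that limit. Without after 2 and before 6 they became 28 (40.6%, against 47.9%). Leaving out any one array gave from 3 (4.35%, against 6.63%, without after 3) to 27 (39.1%, against 42.8%, without after 2). The median change of the members, 0.02, became -0.11 with array weights and lay between -0.094 (without before 5) and 0.0104 (without before 6) when any one array was left out. The estimate of array weights stopped before convergence, with weights from 0.0019 (after 1) to 30.7 (before 4). Why these counts moved is not known: the cause was not tested.

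Of 39 named members, 19 kept the sign of their difference in all alternatives that held them, and 20 did not. Those that kept it included SRP72 (-1.58 to -0.50), SEC62, SEC23A, TMED5, DNAJB9, YIPF1, YIPF5, COPB1 and COPE. Those that did not included HSPA5, CANX, CALR, EDEM3 and SEC24B. The intensity trend, the dim filters and the matched blocks return the same difference as the main fit, so they could not turn a sign. Some members were also named for a large t in these same data, so their kept sign is no separate support. Median centring or quantile normalization turned the sign of ATF4, SEC11C and SEC31B only, of all 69 members. What dim signal limits was not tested.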
